A study of Mus musculus with 24 samples.

Results

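Total RNA of bone marrow-derived macrophages from Pparg fl/- LysCre mice was compared with that from Pparg+/- LysCre mice, all cultured with IL-4 and rosiglitazone (RSG), a synthetic PPARγ agonist. The comparison used 6 of the 24 arrays of the study, chosen by their labels alone: 3 arrays of Pparg+/- cells (mice 1 to 3) and 3 of Pparg fl/- cells (mice 4 to 6). All 6 cultures were grown for 10 days with M-CSF at 20 ng/ml as growth factor, with IL-4 added at the same concentration and RSG at 1 uM. Both genotypes carried 1 null allele of Pparg and Cre driven from the lysozyme locus, which is active in myeloid cells, on a C57Bl/6 background. Pparg+/- mice kept an intact second allele, whereas the second allele of Pparg fl/- mice was floxed, that is, flanked by sites that Cre can recombine. The same mice also gave cultures with IL-4 and vehicle, with RSG alone and with vehicle alone, which are used below only to place the values. The ages of the mice are not given in the sources used here.

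PPARγ is a nuclear receptor that binds DNA together with RXR and is activated by fatty acid-like ligands. It is known for turning on genes of lipid uptake, storage and oxidation, and also for holding down inflammatory genes. IL-4, acting through the transcription factor STAT6, drives the alternative activation of macrophages, raises Pparg transcription in these cells and makes them responsive to PPARγ agonists. The comparison therefore asks what the genotype changes in the condition in which the receptor is both induced and ligand-activated.

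Expression is given as the deposited ratio, in which 1 is the median over the arrays for most probe sets. A ratio says how an array compares with other arrays, not how bright a probe set is. The labelled cell type could for this reason not be checked by the level of its markers. Differences are log2 ratios of Pparg fl/- minus those of Pparg+/- cells, with the standard error (SE) from limma and n = 3 mice per genotype. This SE, and the intervals made from it, pool the spread within all groups of the study, including cultures without IL-4 or RSG. The word called is used of a probe set that differed by 1.5-fold or more with an adjusted p under 0.05. In the 6 arrays, correlations between arrays of a genotype were 0.291 to 0.322. Median ratios lay between 0.966 and 1.03, but the scaling of each array keeps them near 1 whatever its quality.

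Pparg itself was measured by a single probe set. Its ratios were 1.09, 0.910 and 0.895 in Pparg+/- mice 1 to 3 and 1.93, 2.41 and 2.81 in Pparg fl/- mice 4 to 6. All 3 Pparg fl/- arrays were thus above all 3 Pparg+/- arrays. The difference was 1.29 ± 0.26 (SE, limma adjusted p = 0.0316), or 2.45-fold. The call was lost without mouse 1 (adjusted p = 0.0690), mouse 2 (0.117), mouse 3 (0.0913), mouse 5 (0.121) or mouse 6 (0.139), and kept without mouse 4 (0.0256). Where this probe set lies relative to the floxed sequence is not given in the sources used here, so that its ratio checks nothing about the deletion. The study reports near complete recombination by PCR, and that RSG no longer induced Fabp4 in its Pparg fl/- macrophages. Neither of those measurements is analysed here. Because the signal of the targeted gene was higher and not lower, Pparg fl/- and Pparg+/- stand below for the labels of the libraries. The genes that neighbour Pparg on its chromosome gave no call among the 80 tested of the 100 nearest, and their median difference was 0.14, as for all genes.

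RefSeq lists 3 promoters of Pparg, and 2 of them hold the letters AGGTCA, the core hexamer that PPARγ and related receptors recognize. Of the genes called higher in Pparg fl/- cells that come from the rule for named genes, 15 had a promoter in the table used. Pparg and Selp, a gene described below, were those of the 15 with this motif, and their promoters with it are shown. Genes picked after their values were seen were not searched. Each window runs from 250 bases before to 50 bases after a transcription start in GRCm38.p6, is written 5′ to 3′ along the gene, and has the hexamer in capitals (TGACCT is its reverse complement).
Pparg, chr6:115360894-115361193 (+ strand): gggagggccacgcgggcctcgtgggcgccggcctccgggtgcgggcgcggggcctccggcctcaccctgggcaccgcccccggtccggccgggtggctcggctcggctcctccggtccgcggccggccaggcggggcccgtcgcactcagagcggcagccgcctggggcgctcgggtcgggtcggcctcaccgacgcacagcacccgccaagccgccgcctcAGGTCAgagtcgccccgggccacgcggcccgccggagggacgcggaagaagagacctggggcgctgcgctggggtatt
Pparg, chr6:115362099-115362398 (+ strand): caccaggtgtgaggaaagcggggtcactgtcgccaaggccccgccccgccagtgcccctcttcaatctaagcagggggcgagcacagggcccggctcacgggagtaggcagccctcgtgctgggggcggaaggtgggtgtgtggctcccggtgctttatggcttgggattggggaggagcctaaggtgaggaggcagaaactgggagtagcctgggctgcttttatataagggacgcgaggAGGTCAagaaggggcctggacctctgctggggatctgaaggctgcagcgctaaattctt
Selp, chr1:164115014-164115313 (+ strand): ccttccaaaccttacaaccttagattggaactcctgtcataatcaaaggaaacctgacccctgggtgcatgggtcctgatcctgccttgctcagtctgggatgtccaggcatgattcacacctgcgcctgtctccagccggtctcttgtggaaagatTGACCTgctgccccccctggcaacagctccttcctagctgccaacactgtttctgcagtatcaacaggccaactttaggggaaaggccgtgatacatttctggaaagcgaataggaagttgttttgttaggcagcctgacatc
The hexamers start at positions -28 and -9 from the transcription start in Pparg and at -93 in Selp. AGGTCA stood, on either strand, in 16.3% of all 32851 promoters of the table. It stood in 3 of 19 promoters (15.8%) of these 15 genes and in 6 of 23 (26.1%) of the promoters of PPARγ target genes. Of 15 promoters of 11 genes called lower that come from the same rule, it stood in 0. The direct repeat bound by PPARγ with RXR, 2 copies of AGGTCA that lie 1 base apart, was found in 0.0396% of all promoters and in none of these sets. Palindromes of the type bound by STAT6, TTC and GAA with 4 or 3 bases between them, stood in 6.95% and 8.3% of all promoters. The first of these was found in 2 of 19 promoters of genes called higher, both of Atat1, and in 1 of 15 of genes called lower, that of Cep162. The windows of Atat1 overlap and hold the same site. By gene, the share among those called higher was 1 of 15 (6.67%), against 8.01% of all genes. The second was in none of the promoters of either set. These shares describe 300-base windows and say nothing of binding elsewhere.

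With IL-4 and RSG, 217 of 43349 probe sets (0.501%) were called between the genotypes. Of these, 154 (0.355%) were higher and 63 (0.145%) lower in Pparg fl/- cells. They stood for 129 genes called higher (0.727% of 17737 genes) and 34 called lower (0.192%), and 35 probe sets had no symbol and 1 had several. The median fold of the called probe sets was 2.14 for those higher and 2.67 for those lower, and 85 of the higher and 50 of the lower differed by 2-fold or more. The share of calls that were higher, 71.0%, depended on the scaling and on single arrays. It was 56.0% when each array was centred on its median (153 higher and 120 lower) and 53.4% after quantile normalization (127 and 111), and the median difference of all probe sets was 0.09 before scaling. Without 1 array the share ran from 40.9% (without mouse 5, 18 higher and 26 lower) to 82.5% (without mouse 1), and was 42.9% without mouse 6, where lower calls again outnumbered higher ones (12 and 9).

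The counts rested on the spread shared by all 24 arrays. With the 6 compared arrays alone limma called 0 probe sets, with 5484 at an unadjusted p under 0.05, and the methods' t-test called 0 after adjustment, with 6481 unadjusted. Leaving out 1 array gave 63 calls without mouse 1, 41 without mouse 2, 124 without mouse 3, 296 without mouse 4, 44 without mouse 5 and 21 without mouse 6. The 3 arrays of each genotype did not overlap for 23.1% of all probe sets, so that a lack of overlap alone does not set a gene apart. They did not overlap in any of the 217 called probe sets, so where it is given below for a called gene it adds nothing to the call.

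**Figure D1:**
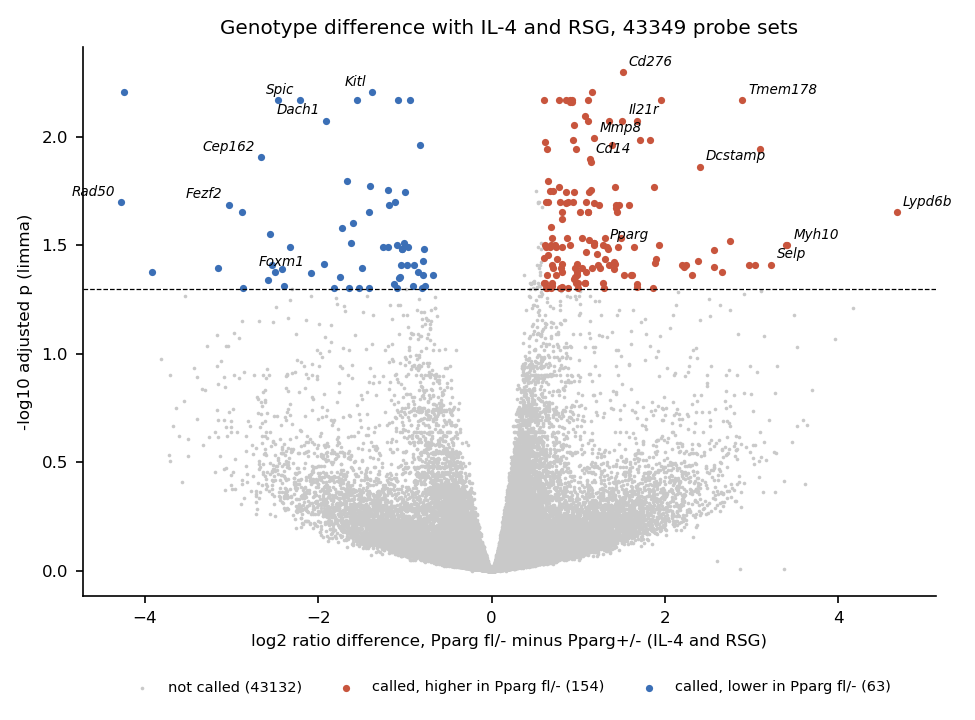
Each point is 1 of 43349 probe sets, with the log2 difference of Pparg fl/- minus Pparg+/- cells (3 arrays each, IL-4 and RSG) on the horizontal axis and -log10 of the limma adjusted p on the vertical axis, where the dashed line marks 0.05. The 154 probe sets called higher (red) and 63 called lower (blue) lie above the line, with Cd276 at the smallest adjusted p (0.00503) and Lypd6b and Rad50 among the largest differences.

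Of the 217 called probe sets, 15 were still called without each of the 6 arrays in turn, 8 of them higher and 7 lower, and all 15 were also called under 6 other settings of scaling, filter, floor, mouse block and variance model. Those settings leave out the 6 arrays alone and the methods' t-test, with 0 calls each, and the 12 arrays with IL-4, with 4. The 15 included 11 named genes, of which Tmem178 and Spic come from the rule for named genes and the other 9 were chosen after their values were seen. Cd276 encodes B7-H3, an immune checkpoint ligand of the B7 family. Its ratios were 0.697, 0.582 and 0.687 in Pparg+/- cells and 1.59, 2.17 and 1.87 in Pparg fl/- cells, a difference of 1.51 ± 0.18 (adjusted p = 0.00503). Prkcb, the β isoform of protein kinase C, had ratios of 0.581, 0.452 and 0.494 against 0.938, 1.20 and 1.17, a difference of 1.11 ± 0.16 (adjusted p = 0.00679). In both genes the lowest Pparg fl/- array lay well above the highest Pparg+/- array. Other genes called higher in each of these fits included Glcci1, a gene induced by glucocorticoids (1.15), Jarid2, a component of the Polycomb repressive complex (1.11), and Adam15, a membrane-bound metalloprotease (0.91).

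On the lower side, Kitl, which encodes stem cell factor, the ligand of the receptor Kit, was represented by 4 probe sets and 3 of them were called. By the probe set with the smallest adjusted p its ratios were 2.02, 2.32 and 1.71 in Pparg+/- cells and 0.807, 0.593 and 0.951 in Pparg fl/- cells. The difference was -1.38 ± 0.18 (adjusted p = 0.00625), the other 2 called probe sets gave -1.25 and -1.49, and the fourth gave -1.70 (adjusted p = 0.0632). All Pparg fl/- cultures thus had less than the lowest Pparg+/- culture by that probe set. Sort1, which encodes the sorting receptor sortilin, had ratios of 2.06, 1.78 and 1.87 against 1.23, 0.710 and 0.828, a difference of -1.08 ± 0.16 (adjusted p = 0.00679). A second probe set of Sort1 was also called (-1.19) and the remaining one was not (-0.71, adjusted p = 0.128). Slc37a2, a sugar phosphate transporter of the endoplasmic reticulum, had ratios of 1.86, 1.57 and 1.68 against 1.08, 0.710 and 0.904, a difference of -0.94 ± 0.14 (adjusted p = 0.00679). Spic, the transcription factor of splenic red pulp macrophages, had ratios of 0.906, 0.630 and 0.764 against 0.240, 0.144 and 0.127. It differed by -2.21 ± 0.33 (adjusted p = 0.00679), or 4.62-fold, whereas its second probe set gave -0.74 (adjusted p = 0.756). The adjusted p of these probe sets of Spic, Sort1 and Slc37a2 reached 0.0468 without 1 array, close to the threshold. The same value was reached by the probe sets of Prkcb, Adam15, Jarid2 and Tmem178 that kept their call.

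The classical PPARγ target genes were next examined in this comparison. None of the 20 tested of 25 listed was called, in either direction, against 0.637% of all genes called higher and 0.101% called lower by 1 probe set per gene. Their median difference was -0.17, with 14 of 20 below 0, whereas the median of all genes was 0.14 and 12078 of 17737 were above 0. Angptl4, a secreted inhibitor of lipoprotein lipase, had the lowest value of the list. Its ratios were 12.7, 10.1 and 8.65 in Pparg+/- cells and 6.47, 2.23 and 3.29 in Pparg fl/- cells, a difference of -1.52 ± 0.49 (adjusted p = 0.202). The arrays did not overlap, but the difference did not pass the adjustment and a second probe set gave -0.83 (adjusted p = 0.778).

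Fabp4, the fatty acid-binding protein of adipocytes and macrophages, was covered by 4 probe sets with differences between -0.85 and -0.95 (adjusted p = 0.112 to 0.240). By the probe set with the smallest adjusted p its ratios were 1.43, 1.01 and 1.34 in Pparg+/- cells and 0.729, 0.626 and 0.657 in Pparg fl/- cells. Nr1h3, which encodes the oxysterol receptor LXRα, had ratios of 2.54, 1.83 and 1.65 against 1.41, 0.988 and 0.935, a difference of -0.85 ± 0.21 (adjusted p = 0.0810). In both genes the 2 genotypes did not overlap, yet neither was called on all arrays. Without mouse 4 both passed, Fabp4 by 2 of its probe sets (adjusted p = 0.0336 and 0.0394) and Nr1h3 at 0.0387, and 2 genes of the list were then called lower by the probe set chosen for each. By contrast, the 3 probe sets of Cd36, a scavenger receptor and fatty acid transporter, gave 0.06, 0.06 and -0.26, and the 95% interval of the first ran from -0.15 to 0.28. The lipid droplet protein Plin2 gave -0.21 (adjusted p = 0.566) and the stearoyl-CoA desaturase Scd1 gave -0.20 and -0.33. Pdk4, an inhibitor of the pyruvate dehydrogenase complex, gave -1.03 with an SE of 0.81, and its arrays overlapped.

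Among genes of fatty acid oxidation, 0 of 27 were called by the probe set chosen for each gene, and the median was -0.07. With arrays centred, after quantile normalization or without mouse 4, 2 of the 27 were called lower. Pex11a, a protein of peroxisome division and a PPAR target, was called by its other probe set. Its ratios were 2.52, 2.42 and 2.88 in Pparg+/- cells and 1.70, 1.29 and 1.07 in Pparg fl/- cells. All Pparg fl/- arrays lay below, by -0.97 ± 0.19 (adjusted p = 0.0321), while the chosen probe set gave -0.49 (adjusted p = 0.203). That call was lost without any 1 of 5 of the 6 arrays, mouse 4 being the exception, with adjusted p-values up to 0.156 (without mouse 6). Triglyceride storage (median 0.01), fatty acid synthesis (0.12), cholesterol biosynthesis (-0.12) and LXR target genes (0.04) held no called gene. The median of the first and last of these lists changed sign with the settings.

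No marker of alternative activation passed the test among the 32 tested, and the median difference was 0.29, above the 0.14 of all genes. Without the filter, without the mean-variance trend or by the mean of a gene's probe sets, 1 was called higher. Arg1, the arginase of alternatively activated macrophages, had ratios of 2.65, 2.64 and 2.72 in Pparg+/- cells and 2.95, 2.96 and 2.91 in Pparg fl/- cells, a difference of 0.14 (95% interval -0.09 to 0.37). Its arrays did not overlap between the genotypes, but the difference was small and not called. The secreted products Chil3 and Retnla gave 0.14 and 0.22, the mannose receptor Mrc1 gave 0.13 (95% interval -0.08 to 0.35), and the chemokine Ccl17 gave -0.26 with an SE of 0.97. For these markers the intervals bound how large a difference could have gone unseen, narrowly for Arg1 and Mrc1 and very widely for Ccl17. Stat6, the transducer of IL-4, gave 0.26 and 0.40 by 2 probe sets. Among the 20 tested nuclear receptors, coactivators and genes of IL-4 signalling, Pparg was the sole call.

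**Figure D2:**
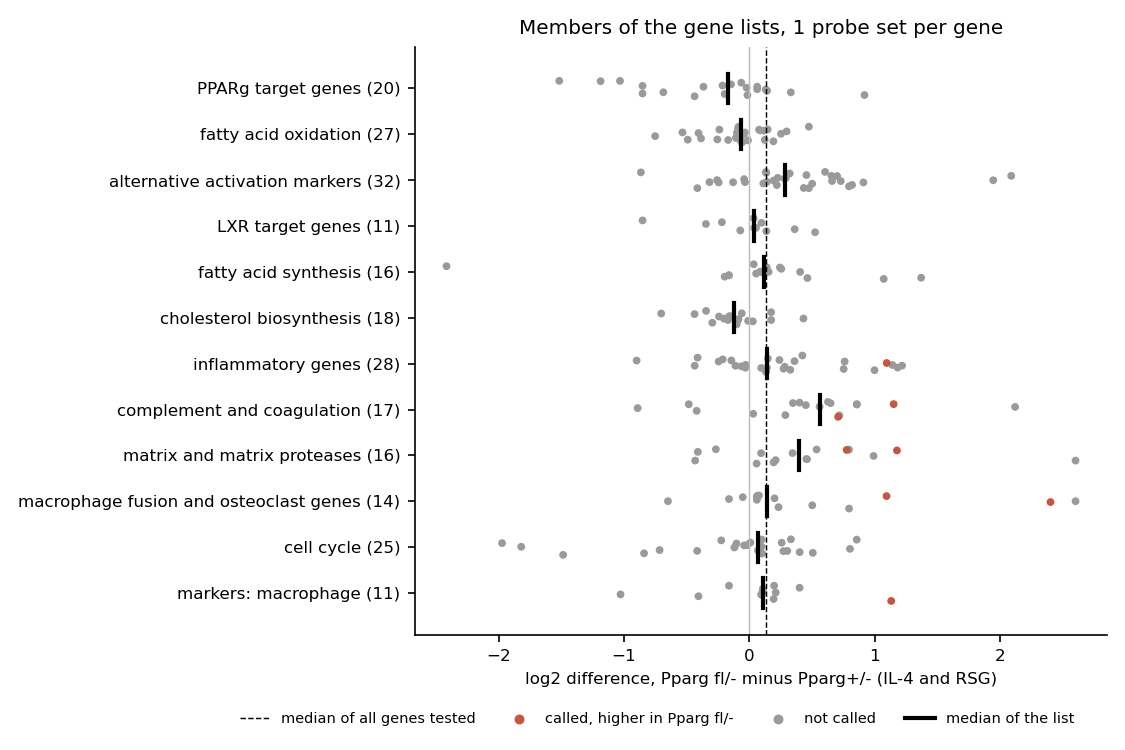
Each point is a gene of the list named on the left (number tested in brackets), plotted at its log2 difference of Pparg fl/- minus Pparg+/- cells with IL-4 and RSG, with called genes in red, list medians as black bars and the median of all genes (0.14) as a dashed line. By the 1 probe set chosen for each gene, no PPARγ target, fatty acid oxidation or alternative activation gene is called. The called genes of the other lists all lie to the right. Pex11a of the fatty acid oxidation list was called lower by a probe set that is not plotted.

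Genes called higher in Pparg fl/- cells included several surface molecules and proteases of macrophages. Of 14 genes of macrophage fusion and osteoclasts, 2 were called, both higher, against the 0.637% of all genes called higher by 1 probe set. The 1 or 2 genes called by 1 probe set in the inflammatory, scavenger receptor, complement and matrix lists stand against the same share. Dcstamp, the transmembrane protein required for fusion of osteoclasts and giant cells, had ratios of 1.08, 0.955 and 1.08 in Pparg+/- cells and 4.14, 5.84 and 6.80 in Pparg fl/- cells. Every Pparg fl/- culture was thus several-fold above every Pparg+/- culture, with a difference of 2.40 ± 0.41 (adjusted p = 0.0137). Cd81, a tetraspanin, had ratios of 0.442, 0.655 and 0.588 against 0.988, 1.29 and 1.31, a difference of 1.09 ± 0.20 (adjusted p = 0.0200). Without 1 array the adjusted p reached 0.0799 for Dcstamp and 0.104 for Cd81, both without mouse 6. The list as a whole did not shift, with a median of 0.14.

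Of 28 inflammatory genes, 1 was called by the chosen probe set and 2 by any probe set, all higher, with a list median of 0.14. Cd40, the receptor of T cell help, had ratios of 0.586, 0.863 and 0.883 against 1.33, 2.00 and 2.11, a difference of 1.22 ± 0.25 (adjusted p = 0.0347), and a second probe set gave 1.10. Cd80, a costimulatory ligand of CD28, had ratios of 0.622, 0.801 and 0.673 against 0.995, 1.44 and 1.45, a difference of 0.88 ± 0.16 (adjusted p = 0.0200), while its 3 other probe sets gave 0.27 to 0.50 and were not called. In both genes the Pparg fl/- arrays lay above all Pparg+/- arrays. Without 1 array the adjusted p reached 0.153 for Cd40 (mouse 6) and 0.114 for Cd80 (mouse 5).

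Cd14, the coreceptor of lipopolysaccharide, was the sole call among 21 scavenger and apoptotic cell receptors and among 11 macrophage markers. Its ratios were 0.362, 0.280 and 0.320 in Pparg+/- cells and 0.548, 0.741 and 0.843 in Pparg fl/- cells, a difference of 1.13 ± 0.19 (adjusted p = 0.0127, and 0.0818 without mouse 6). The genotypes did not overlap.

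The pair of Plau, the urokinase-type plasminogen activator, and Plaur, its receptor, was called higher among 17 genes of complement and coagulation. Plau had ratios of 0.230, 0.288 and 0.383 against 0.623, 0.741 and 0.729, a difference of 1.24 ± 0.23 (adjusted p = 0.0206), and a second probe set gave 1.15. Plaur had ratios of 0.925, 0.922 and 0.943 against 1.41, 1.67 and 1.49, a difference of 0.71 ± 0.13 (adjusted p = 0.0178). For both the highest Pparg+/- array lay below the lowest Pparg fl/- array, and both had an adjusted p of 0.0996 without mouse 5. The list had a median of 0.56 and 14 of 17 genes above 0. The uncalled C1q subunit genes C1qa, C1qb and C1qc gave 0.86, 0.63 and 0.72, with adjusted p-values between 0.175 and 0.263.

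Among 16 matrix genes and matrix proteases 2 were called, with a list median of 0.40. Mmp8, a collagenase, had ratios of 0.558, 0.482 and 0.419 against 1.01, 1.20 and 1.07, a difference of 1.18 ± 0.19 (adjusted p = 0.0101, and 0.0562 without mouse 5). Tgfbi, a secreted matrix protein induced by TGF-β, had ratios of 0.693, 0.641 and 0.952 against 1.19, 1.23 and 1.46, a difference of 0.78 ± 0.14 (adjusted p = 0.0171, and 0.0990 without mouse 6). Its 3 other probe sets gave 0.62 to 0.71 and were not called. No array of one genotype entered the range of the other in these genes. Further genes picked after seeing their values were Hbegf, an EGF receptor ligand, with 2 called probe sets (1.39 and 1.43), Il21r, the receptor of IL-21 (1.51), Cdk6, a cell cycle kinase, with 2 called probe sets (0.86 and 0.93), and Fabp3, a fatty acid-binding protein, with 1 called probe set (0.77) and another that gave -0.21 (adjusted p = 0.832).

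The remaining lists gave no call. Their median differences were 0.15 for 27 interferon-stimulated genes, 0.33 for 11 genes of MHC class II presentation, 0.07 for 25 cell cycle genes, 0.20 for 20 genes of glycolysis and the hypoxia response, and 0.17 for 20 stress and immediate early genes. The median of the cell cycle list changed sign with the settings.

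Next, the 12 genes with the largest rise in Pparg fl/- cells were described, leaving out genes known only by a Gm number or a Rik name, which were counted but not named. Ratios do not show whether the probe sets of these rises, or of the falls below, had a signal above background. Lypd6b, a Ly6 family protein, had ratios of 0.0915, 0.0670 and 0.187 in Pparg+/- cells and 2.11, 2.60 and 3.50 in Pparg fl/- cells, a difference of 4.68 ± 0.87 (adjusted p = 0.0222), or 25.6-fold. Myh10, a nonmuscle myosin heavy chain, had ratios of 0.0292, 0.180 and 0.0660 against 0.492, 0.916 and 0.931, a difference of 3.41 ± 0.68 (adjusted p = 0.0316). Selp, which encodes the adhesion molecule P-selectin, had ratios of 1.51, 0.946 and 2.84 against 8.24, 20.2 and 20.1, a difference of 3.23 ± 0.67 (adjusted p = 0.0388). In these genes the mice of one genotype differed among themselves by up to about 6-fold. That the genotypes did not overlap was part of the rule that chose them. Tmem178, a transmembrane protein that restrains osteoclast formation, had ratios of 0.236, 0.262 and 0.255 against 1.55, 2.61 and 1.61, a difference of 2.90 ± 0.42 (adjusted p = 0.00679).

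The other rises were those of Rasal1, a Ras GTPase-activating protein (3.05), Cit, the citron kinase of cytokinesis (2.97), Pde10a, a cyclic nucleotide phosphodiesterase (2.76), Ptchd1, a patched domain protein (2.66), Ppp1r3c, a glycogen-targeting subunit of protein phosphatase 1 (2.57), Elfn2 (2.57), Dcstamp (2.40) and Atat1, the tubulin acetyltransferase (2.38). Of the 12, Tmem178 alone was still called without each of the 6 arrays in turn. For the other 11 the adjusted p rose to between 0.0799 (Dcstamp, without mouse 6) and 0.189 (Selp, without mouse 2). The rises were also unevenly shared by the probe sets of a gene. Of 7 of the 12 genes with several probe sets, 1 had a second call (Ptchd1, 1.18), and 9 of the 16 uncalled probe sets had the same sign. The second probe set of Myh10, for example, gave -1.08 (adjusted p = 0.774).

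**Figure D3:**
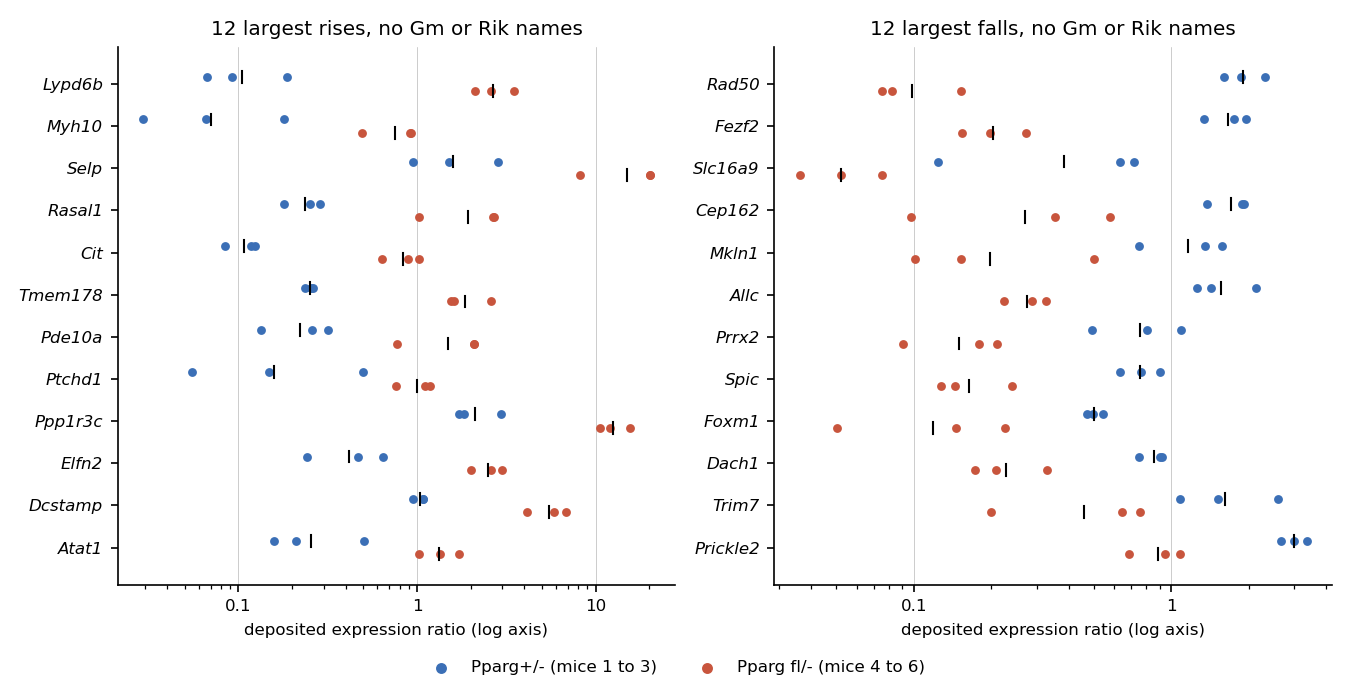
Deposited ratios (log axis) of the 12 genes with the largest rise (left) and the 12 with the largest fall (right) apart from genes with a Gm or Rik name, with 1 point per array, Pparg+/- mice 1 to 3 in blue, Pparg fl/- mice 4 to 6 in red, and black ticks at the geometric means. Genes were chosen among those without overlapping genotypes, and the distance is widest for Lypd6b (0.0670 to 0.187 against 2.11 to 3.50) and Rad50 (1.60 to 2.31 against 0.0756 to 0.152).

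The 12 largest falls, again apart from genes with a Gm or Rik name, included Rad50, a protein of DNA double-strand break repair, with ratios of 1.60, 2.31 and 1.86 in Pparg+/- cells and 0.0827, 0.152 and 0.0756 in Pparg fl/- cells. The difference was -4.27 ± 0.77 (adjusted p = 0.0200). A second probe set of Rad50 showed no such fall and gave 0.21 (adjusted p = 0.575). Fezf2, a zinc finger transcription factor, had ratios of 1.75, 1.34 and 1.94 against 0.274, 0.154 and 0.197, a difference of -3.03 ± 0.56 (adjusted p = 0.0206). Slc16a9, a monocarboxylate transporter, had ratios of 0.632, 0.124 and 0.717 against 0.0361, 0.0753 and 0.0522, a difference of -2.88 ± 0.54 (adjusted p = 0.0222), and its other probe sets gave -1.08 and 0.35. Mouse 2 lay much nearer to the Pparg fl/- arrays than mice 1 and 3 did. Dach1, a transcriptional corepressor, had ratios of 0.924, 0.752 and 0.904 against 0.208, 0.328 and 0.173, a difference of -1.91 ± 0.30 (adjusted p = 0.00842), while its other probe sets gave -0.01 and 0.55.

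Foxm1, a transcription factor of the cell cycle, was called by 1 of 4 probe sets (-2.08 ± 0.45, adjusted p = 0.0422), and the other 3 gave 0.05, 0.28 and 1.62. The remaining falls were those of Cep162, a centrosomal protein (-2.66), Mkln1, a subunit of a ubiquitin ligase complex (-2.56), Allc, allantoicase (-2.50), Prrx2, a homeobox factor (-2.33), Spic (-2.21), Trim7, a tripartite motif ubiquitin ligase (-1.82), and Prickle2, a planar cell polarity protein (-1.75). Of 9 of the 12 genes with several probe sets, none had a second call, and 7 of 18 other probe sets had the same sign. Over all 34 genes called lower, 27 had several probe sets, and all probe sets had the same sign in 10 of them, against 63 of 88 for genes called higher. Which probe set stands for the transcript of a gene whose probe sets differ was not tested. Of the 12, Spic alone was still called without each of the 6 arrays. Dach1 lost its call without mouse 6 (adjusted p = 0.0543) and Cep162 without mouse 2 (0.0607), and for the other 9 the adjusted p rose to between 0.0852 (Rad50, without mouse 2) and 0.213 (Trim7, without mouse 1).

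The other conditions of the same mice were then set beside these values. Genotype called 1 probe set with IL-4 and vehicle (0.00231%), 2 with RSG without IL-4 (0.00461%) and 0 with vehicle alone (0%), where limma gave 3947 (9.11%) at an unadjusted p under 0.05. None of the 217 was called in any of these. Their differences nevertheless had the same sign in 198 of 217 with IL-4 and vehicle (91.2%, against 62.5% of all probe sets), in 191 with RSG alone (88.0%, against 63.3%) and in 180 with vehicle alone (82.9%, against 59.7%). These are other arrays but the same 6 mice, so they do not add mice. In the direction of the call the median size was 1.13 with IL-4 and RSG, which chose the probe sets, 0.42 with IL-4 and vehicle, 0.46 with RSG alone and 0.26 with vehicle alone.

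Some named genes differed mainly with IL-4 and RSG. Mmp8 gave 0.18 with IL-4 and vehicle, -0.10 with RSG alone and 0.03 with vehicle alone, against 1.18 with both agents, and Fezf2 gave 0.03, -0.12 and 0.05 against -3.03. Others leaned the same way in each condition. Plau gave 0.86, 0.63 and 0.70 against 1.24, Pparg 0.59, 0.92 and 0.47 against 1.29, and Cd81 0.44, 0.45 and 0.44 against 1.09. With IL-4 and vehicle, the Pparg ratios were 2.02, 1.71 and 1.46 in Pparg+/- and 1.86, 2.91 and 3.16 in Pparg fl/- cells. The genotypes thus overlapped there, as they did with vehicle alone. Whether the genotype difference itself differed with and without RSG was tested as an interaction over all probe sets. With IL-4, 0 probe sets (0%) were called for RSG against vehicle, with 2034 (4.69%) at an unadjusted p under 0.05 in limma and 1 call without the mean-variance trend. No gene named here is therefore shown to depend on RSG for its genotype difference. With RSG, 2 probe sets (0.00461%) were called for IL-4 against no IL-4, those of Dach1 and Gp5, and 0 with mouse as a fixed block.

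**Figure D4:**
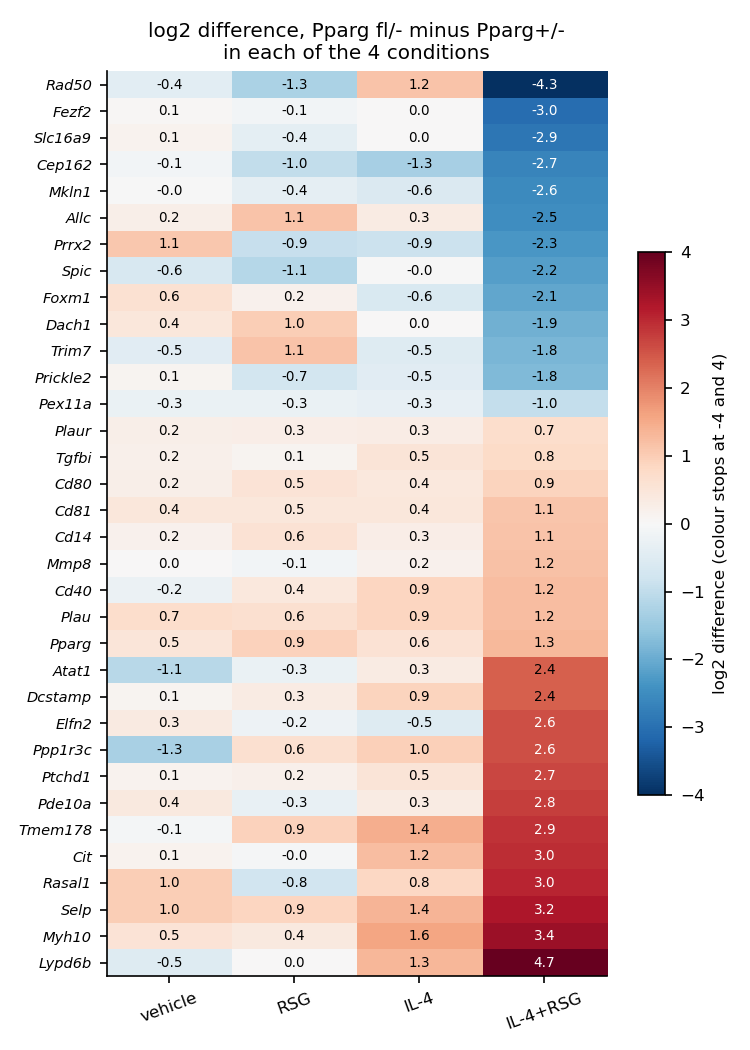
Log2 differences of Pparg fl/- minus Pparg+/- cells (colour and printed value, 3 arrays per genotype) of the named genes called with IL-4 and RSG, in the 4 conditions from vehicle alone to IL-4 and RSG. The right column chose the genes; Plau (0.7 to 1.2) leans one way in every condition, whereas Mmp8 and Fezf2 are near 0 in the 3 other columns.

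RSG responses with IL-4 share the arrays with IL-4 and RSG with the genotype comparison, so their values are given side by side only. RSG called 75 probe sets in Pparg+/- cells (0.173%) and 4 in Pparg fl/- cells (0.00923%). Angptl4 rose with RSG in both, by 4.12 in Pparg+/- cells (adjusted p = 0.00412) and by 4.32 in Pparg fl/- cells (adjusted p = 0.00147). Its ratios with IL-4 and vehicle were 0.701, 0.474 and 0.633 in Pparg+/- and 0.0684, 0.412 and 0.210 in Pparg fl/- cells. The Pparg fl/- cells thus started lower and stayed lower with RSG. Cd14 fell by 1.22 in Pparg+/- cells (adjusted p = 0.0111) and had a response of -0.34 in Pparg fl/- cells, which was not called. Mmp8 fell by 1.08 (adjusted p = 0.0182) and had -0.08 in Pparg fl/- cells, and Cd276 fell by 1.31 (adjusted p = 0.00581) and had -0.27. Pex11a rose by 1.04 (adjusted p = 0.0271) and had 0.40 in Pparg fl/- cells. Sort1 rose by 0.94 (adjusted p = 0.0131) and had 0.47. Dach1 had a response of -0.04 in Pparg+/- cells and fell by 1.97 in Pparg fl/- cells (adjusted p = 0.0332). Fabp4, by the probe set shown above, had ratios of 0.730, 0.637 and 0.657 with IL-4 and vehicle in Pparg+/- cells. With IL-4 and RSG these were 1.43, 1.01 and 1.34. In Pparg fl/- cells its ratios were 0.770, 0.407 and 0.507 with vehicle and 0.729, 0.626 and 0.657 with RSG. In none of these genes was the difference of the 2 responses called.

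**Figure D5:**
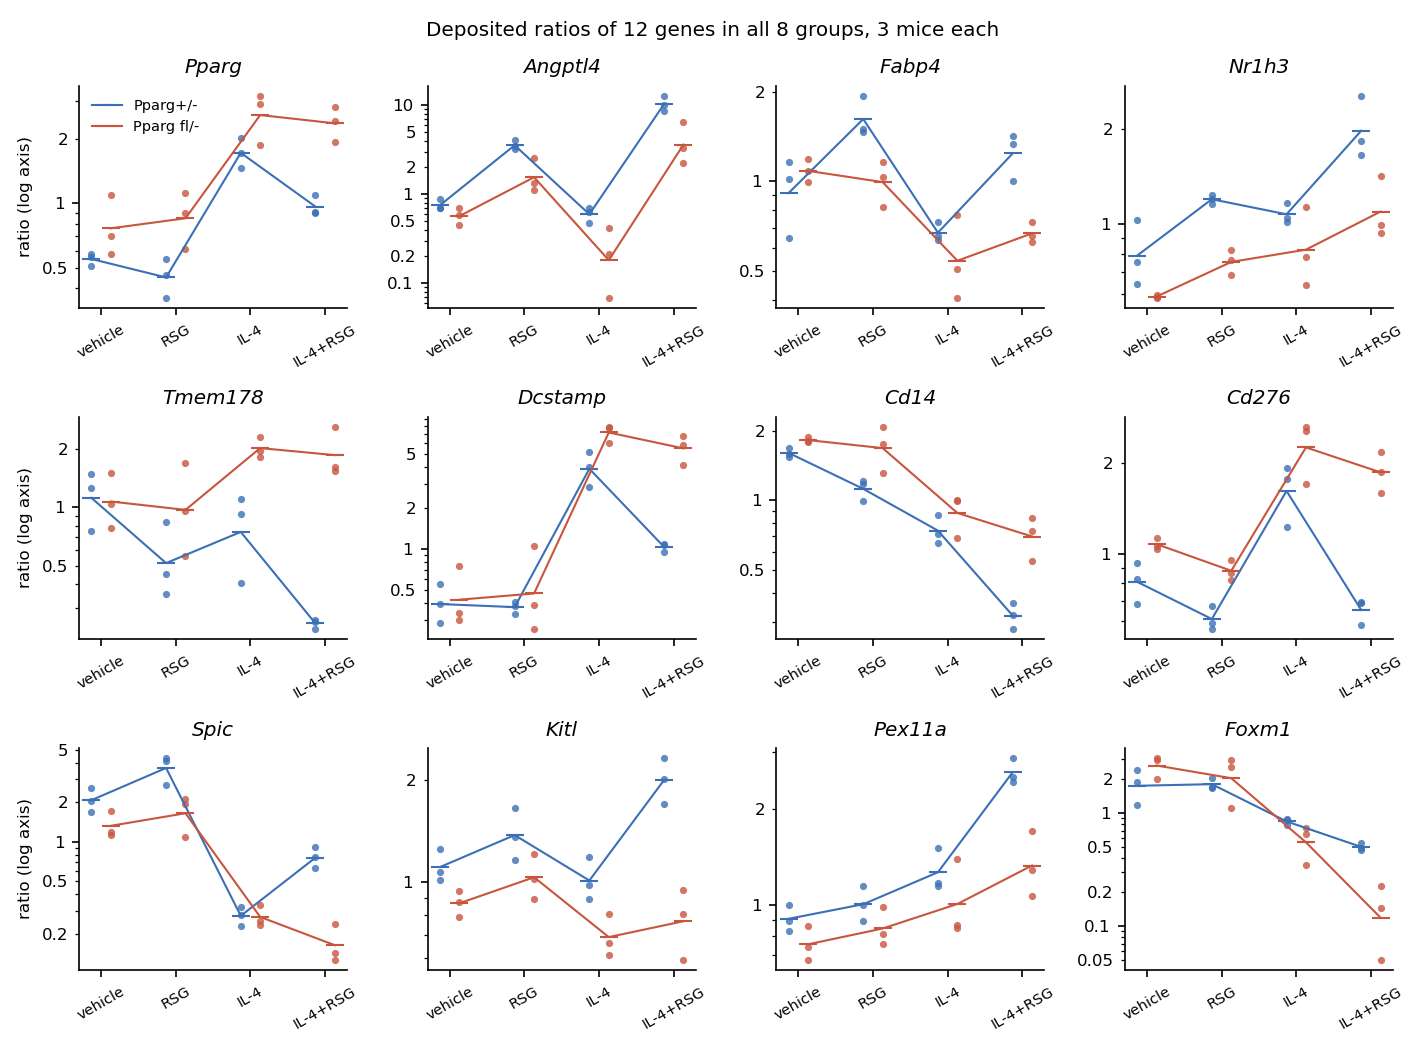
Deposited ratios (log axis, a scale per gene) of 12 genes in the 4 conditions, with 1 point per array, lines through the geometric means, Pparg+/- cells in blue and Pparg fl/- cells in red. Angptl4 rises with RSG in both genotypes, whereas Cd14, Cd276 and Dcstamp lie lower with IL-4 and RSG in the 3 Pparg+/- mice than in the 3 Pparg fl/- mice.

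Markers of other cell types gave no call in any of 9 lists. In bulk RNA, fewer cells of a type and less RNA per cell cannot be told apart. The summed ratios of 9 dendritic cell markers were 9.16 to 10.8 in Pparg+/- and 13.0 to 16.0 in Pparg fl/- arrays, with a median difference of 0.58. Those of 5 eosinophil markers were 2.08 to 4.24 and 4.45 to 7.16 (median 1.01), and those of 3 adipocyte markers 2.94 to 4.12 and 1.39 to 3.41 (median -0.85, Fabp4 among them). Those of 9 mast cell and basophil markers were 9.19 to 17.5 and 6.60 to 12.5 (median -0.77). The sums of dendritic cell and eosinophil markers therefore did not overlap between the genotypes, although no single marker passed the test. The arrays of 23.1% of all single probe sets did not overlap either, and sums of other gene sets were not made for comparison. A sum of ratios can also rest on a few markers. The part of these markers in the genes called higher was not tested. Neutrophil (-0.09), stromal (0.07), B cell (0.09), T and NK cell (0.10), erythroid (0.10) and macrophage (0.11) markers had medians closer to that of all genes, with sums that overlapped, and those of neutrophil, stromal and T and NK cell markers changed sign with the settings. The 4 sex-linked genes tested gave no call and a median of -0.02.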

How the data were processed

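Total RNA was hybridized to 24 Affymetrix mouse expression arrays. The authors deposited expression ratios, for which they took GC-RMA signals in GeneSpring 7.3 and divided them by each array's 50th percentile and each probe set's median. GCOS, of unstated version, is named in the submitters' notes too. The last division by the vehicle control that the methods describe was not found in the values, and 82.2% of probe sets had a median within 0.005 of 1. The lowest ratio, 0.01, served as floor (124 values), and ratios were log2 transformed.

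Controls (64) and probe sets whose ratio reached the array's median ratio on fewer than 3 arrays (1688) were left out. Because it compares ratios and not brightness, this filter did not remove probe sets with a signal near background. The other 43349 were fitted in limma 3.58.1 (R 4.3.3) to the means of 8 groups of 3 arrays, with a mean-variance trend and Benjamini-Hochberg adjustment over all probe sets. The 4 arrays of a mouse lie within its genotype, so mouse could serve as a random block for the genotype difference and as a fixed block for the interactions. The labels give a mouse number for each array, so arrays are paired by animal in the interactions; their deviations had mean correlations of -0.001 to 0.030. The values given come from the fit without a block unless a block is named. In the lists each gene stood by the probe set with the smallest spread within groups. Named genes were Pparg and genes the study names, the 12 largest rises and falls among called genes with non-overlapping arrays and no Gm or Rik name, and, from each list, at most 4 called members. The comparison, lists and rules were chosen with earlier results of these data known. Probe sets with no symbol or several were counted, not named. Genes of the study's list that are missing above were not analysed here. The main fit was also run on simulated data with the means and spread of the real probe sets. It called 28% of 100 probe sets given a 2-fold change and 53% of 100 given a 4-fold change. It also called 7 unchanged ones. A gene that was not called may thus still differ. Precision is limited by the number of arrays. P-values of the main fit rest on the spread between mice within all 8 groups, not within the compared arrays alone. There was 1 culture per mouse and condition. Without a block, the fit counted the 4 arrays of a mouse as independent. Alternatives covered scaling, filter, floor, arrays in the fit, block, variance model, test, fold threshold and leaving out each array.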

Additional observations from a re-analysis of the deposited data

Results flagged for a closer look

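The genotype difference under RSG differed with and without IL-4 for 2 genes, by 1 probe set each, by the interaction term in limma. The other probe sets of Dach1 were not called for it. Their genotype differences with IL-4 and RSG were -0.01 and 0.55. For the called probe set of Dach1 the difference with IL-4 minus that without was -2.89 (adjusted p = 0.0391). Its mean ratios with RSG with IL-4 were 0.860 ± 0.094 for Pparg+/- against 0.236 ± 0.081 for Pparg fl/- mice, and 0.837 ± 0.316 and 1.58 ± 0.11 without IL-4 (SD, n = 3 mice). For Gp5, a subunit of the platelet glycoprotein complex, the value was -2.86 (adjusted p = 0.00449). Its mean ratios were 1.35 ± 0.13 and 1.06 ± 0.07 with IL-4 and RSG, and 0.180 ± 0.041 and 1.02 ± 0.17 with RSG alone, so that the Pparg+/- cells with RSG alone were the low group. With mouse as a fixed replicate block neither was called (adjusted p = 0.930 for Dach1 and 0.826 for Gp5). When 1 of the 6 arrays with IL-4 and RSG was left out, Dach1 also lost its call without mouse 1 (0.196), 2 (0.0588), 3 (0.124), 4 (0.124) and 6 (0.0782). Gp5 kept its call without each of these 6 arrays (at most 0.0479). The arrays with RSG alone, which hold the low group of Gp5, were not left out in turn.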

How the results depend on the processing

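The count of 217 calls stayed within 1.5 times under centring (273), quantile normalization (238), no filter (207), a stricter filter (174), a floor of 0.05 (221), a random replicate block (230, all 217 among them) and no variance trend (193). It was 135 at 2-fold, 4 with the 12 IL-4 arrays, 0 with the 6 arrays alone, 0 by the methods' t-test, where 2003 passed unadjusted with the fold, and 21 to 296 without 1 array. The cause was not tested beyond the fewer arrays. Of the 34 called probe sets of named genes, 318 of 562 values under the alternatives kept the call and 244 lost it. That 0 reversed says little. Their arrays did not overlap, so leaving out 1 array could not reverse them. Settings of filter, block, variance model, test or threshold leave the size of the difference as it is. Among uncalled ones, Fabp4 (2 probe sets) and Nr1h3 passed without mouse 4, and Cd36 reversed to -0.00996 and -0.00677 by 2 probe sets under quantile normalization. Without 1 array Ccl17 ran from -1.29 to 0.50, above 0 without mouse 2, 3 or 5, and Scd1 by 1 probe set from -0.63 to 0.063, above 0 without mouse 5. Interaction counts were 1 (IL-4, RSG against vehicle) and 4 (RSG, with against without IL-4) without the trend. With the fixed replicate block they were 0 and 0, and the second ran from 1 to 2 without 1 of the 6 arrays with IL-4 and RSG. The random block lost no call.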
